A study of Mus musculus with 9 samples.

Results

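Mouse embryos that had lost 1 allele of Sox9 were compared with embryos that had lost 1 allele of Pdx1, through transcript levels in the epithelium of the dorsal pancreas at e12.5. The comparison rests on 6 of the 9 arrays of the series, chosen by their genotype labels: 3 labelled Sox9het and 3 labelled Pdx1het, each with the RNA of 3 dorsal pancreata, 1 per embryo. In the Sox9 heterozygotes a floxed Sox9 allele was deleted by a Cre recombinase driven from Foxa3 sequence (Sox9fl/+; Foxa3-Cre). The labels do not say how completely it recombined. In the Pdx1 heterozygotes (Pdx1-/+) a LacZ insertion disrupted 1 Pdx1 allele, and the label names neither a floxed allele nor the Cre transgene. The groups therefore differ in Sox9, in Pdx1 and in the presence of Foxa3-Cre, and these cannot be told apart. The other 3 arrays, of littermates that carry both changes (Sox9fl/+; Foxa3-Cre; Pdx1-/+), entered the estimate of the spread and are given beside the results. No wild-type samples were analysed here, so a difference does not show which group departed from the normal level.

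SOX9 is an HMG-box transcription factor that keeps the early pancreatic epithelium in a progenitor state, and outside the pancreas it drives cartilage matrix genes such as those for collagens II and IX. PDX1 is a homeodomain factor that is needed for the growth of the pancreatic bud and later for beta cells. At this stage the bud holds multipotent progenitors, the first acinar and endocrine cells and, around the epithelium, mesenchyme, vessels and nerves.

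Levels are the deposited array intensities, a linear scale on which the median probe read 347 to 353 on every array. The lower quartile was 117 to 122, and no detection flags were used, so a level near or under it may not be above background and a fold against it may understate the difference. Cdh1, which encodes the epithelial adhesion protein E-cadherin, read 11087 to 14156 on the 6 arrays, above each array's median. Of 21 endothelial markers 18 also lay above the median on all 6 arrays, so RNA of other cell types was present in both groups. For mesenchymal markers it was 18 of 32, which shows little by itself, since a median splits all probes evenly. In RNA of mixed cell types, fewer cells of a type and less transcript per cell cannot be told apart. Each array's lowest correlation with its own group, over probes, was 0.9924 to 0.9948 in the Sox9 and Pdx1 heterozygotes and 0.9915 to 0.9918 in the double heterozygotes. Xist read 128, 139 and 453 in the Sox9 and 443, 258 and 193 in the Pdx1 heterozygotes, and the Y-linked Eif2s3y read 2639, 2278 and 608 against 838, 1583 and 1562. The pools thus differed in their mix of sexes within each group, and none of the 7 measured sex-linked genes passed the test between groups.

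The altered genes come first. Sox9 read 294, 294 and 325 in the Sox9 heterozygotes and 239, 198 and 234 in the Pdx1 heterozygotes. Every array of the group that had lost a Sox9 allele was thus above every Pdx1 array, by a log2 difference of 0.45 ± 0.11 (SE, n = 3 and 3; 95% interval 0.19 to 0.70) that did not pass the limma test over all probes (adjusted p = 0.298). Pdx1, listed under its older symbol Ipf1, read 1316, 1573 and 1502 against 1132, 1098 and 1080. The group that had lost a Pdx1 allele was the lower one on all arrays, by 0.40 ± 0.09 (interval 0.20 to 0.61; adjusted p = 0.217). The double heterozygotes, which carry both changes, read 292, 328 and 381 for Sox9, also above every Pdx1 array, and 1203, 1143 and 1352 for Pdx1. Their log2 difference to the Pdx1 heterozygotes was 0.57 for Sox9 (adjusted p = 0.108) and 0.16 for Pdx1 (adjusted p = 0.397). Between Sox9 and Pdx1 heterozygotes the exact two-sided permutation test gave p = 0.1 for each gene, the smallest value that 3 against 3 arrays allow. Where the probes sit relative to the floxed sequence and the LacZ insertion is unknown here, so neither level checks a label.

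Foxa3, a forkhead factor of the foregut endoderm and the source of the sequence that drives the Cre, was higher in the Sox9 heterozygotes. It read 1029, 987 and 1002 there against 521, 545 and 548 in the Pdx1 heterozygotes, and 1105, 1006 and 1193 in the double heterozygotes. Both groups with Foxa3-Cre in their label thus stood above the group without it, with no overlap. They are also the groups that had lost a Sox9 allele, and Cre and Sox9 loss cannot be told apart. The log2 difference between Sox9 and Pdx1 heterozygotes was 0.90 ± 0.08 (adjusted p = 0.00296 in the limma test), a 1.87-fold higher level. That between the double and the Pdx1 heterozygotes was 1.03 (adjusted p = 0.00366).

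**Figure D1:**
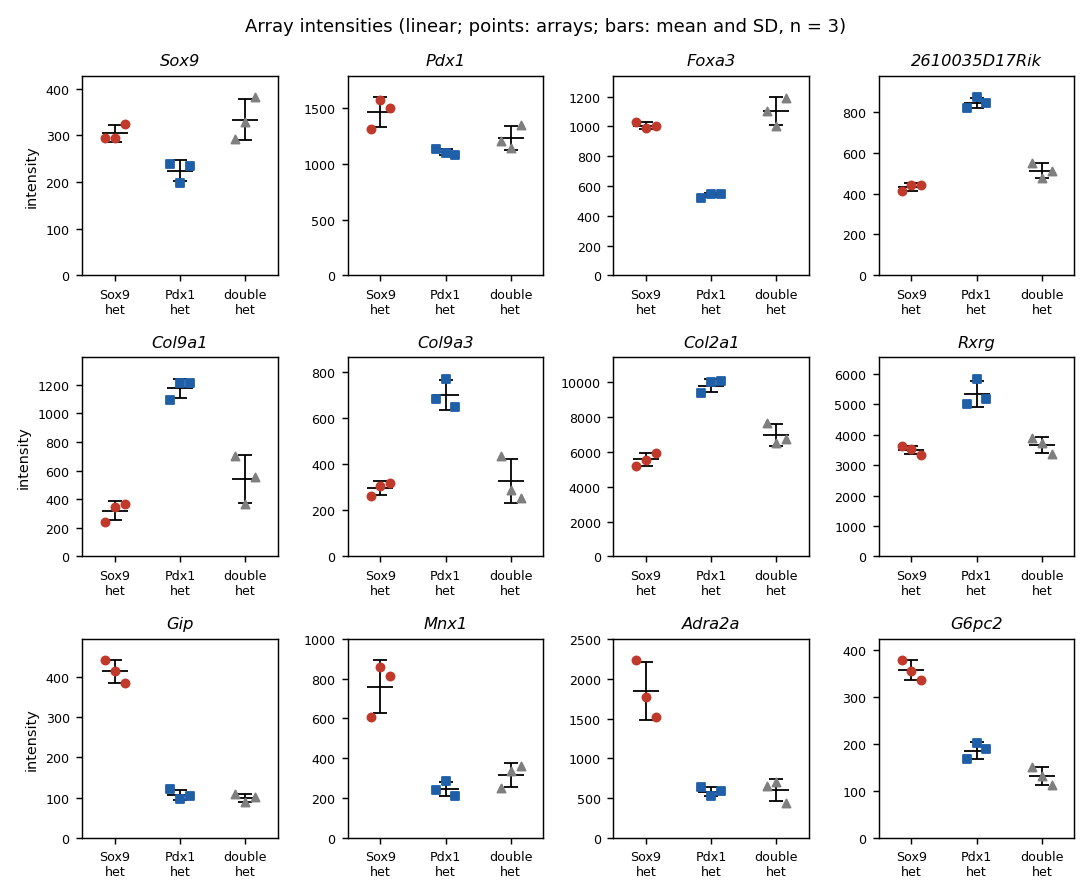
Intensity (linear scale from 0) of 12 genes on each array; points are arrays, horizontal bars the mean and vertical bars the SD of 3 arrays, in Sox9, Pdx1 and double heterozygotes. Foxa3 is 987 to 1193 in both groups with Foxa3-Cre and a deleted Sox9 allele and 521 to 548 in the Pdx1 heterozygotes. The collagen genes are lower and Gip and Mnx1 higher in the Sox9 than in the Pdx1 heterozygotes.

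Over all 18541 probes, 1 for each gene, 43 passed an adjusted p of 0.05 between Sox9 and Pdx1 heterozygotes, 0.232% of those tested. Of these, 28 (0.151%) were higher and 15 (0.0809%) lower in the Sox9 heterozygotes, 35 differed at least 1.5-fold and 11 at least 2-fold. Each count below of list members or neighbours that passed between these groups stands against these shares. The 3 arrays of one group lay wholly above or below the 3 of the other for all 43, as they did for 12.6% of all probes. Leaving out 1 array never turned the direction of any of the 43, but the number of calls fell to 17, 8 and 10 without Sox9 array 1, 2 or 3 and to 11, 4 and 4 without Pdx1 array 1, 2 or 3. It rose to 71 without double-heterozygote array 3. Gip, Tdh, Foxa3 and 2610035D17Rik kept their calls in all 17 alternative fits, and the other 39 lost theirs in 3 to 8 of the 9 fits that leave out an array, with log2 differences within 1.22 times the full value in all 17 fits.

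**Figure D2:**
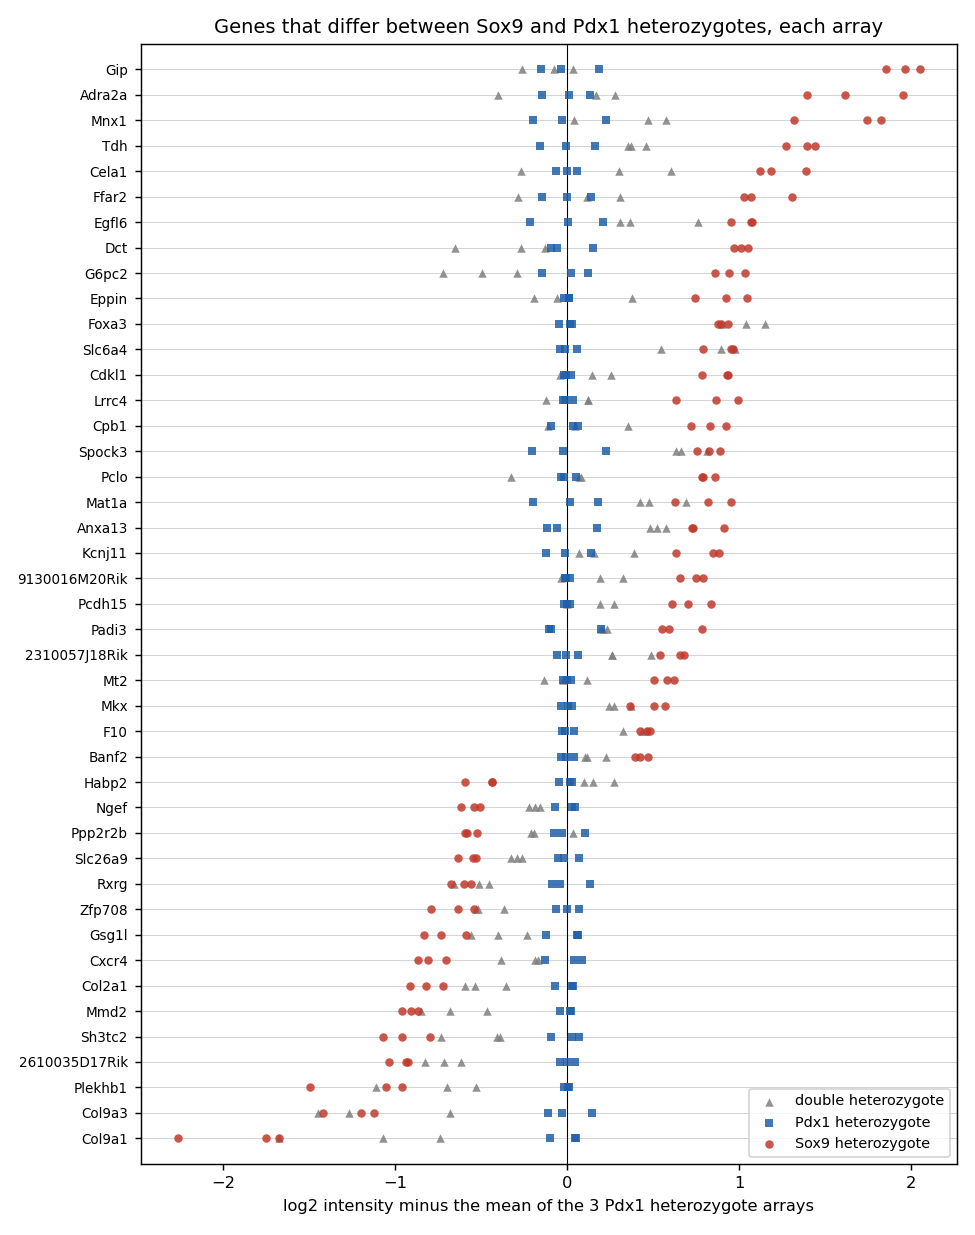
Each of the 43 genes that differ, with log2 intensity on every array relative to the mean of the Pdx1 heterozygote arrays (horizontal axis). Red circles are Sox9, blue squares Pdx1 and grey triangles double heterozygotes; red and blue do not overlap for any gene, and grey lies nearer to blue for most genes at the top and nearer to red for most at the bottom.

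Among the genes that passed, the 3 with the largest differences upward in the Sox9 heterozygotes were Gip, Adra2a and Mnx1. Gip, the gene of the gut hormone glucose-dependent insulinotropic polypeptide, read 442, 416 and 385 in the Sox9 and 121, 96 and 104 in the Pdx1 heterozygotes. The Pdx1 arrays lay close to or under the lower quartile of all probes, and the log2 difference was 1.96 ± 0.11, a 3.88-fold one (adjusted p = 2.68e-04, limma). Mnx1, a homeodomain factor needed to form the dorsal bud and listed under its older symbol Hlxb9, read 607, 860 and 813 against 238, 284 and 212. All Sox9 arrays were above all Pdx1 arrays, 3.09-fold on average (1.63 ± 0.18, adjusted p = 0.0125). Adra2a, an adrenergic receptor that restrains insulin release in beta cells, read 2241, 1773 and 1522 against 635, 524 and 584, a 3.15-fold difference (1.65 ± 0.19, adjusted p = 0.0152).

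G6pc2 and Kcnj11, the only 2 of 28 measured genes of hormone granules and secretion to pass, were also higher. G6pc2, a glucose-6-phosphatase of islet cells, read 378, 355 and 336 in the Sox9 and 167, 201 and 188 in the Pdx1 heterozygotes (0.95 ± 0.12, adjusted p = 0.0173). Kcnj11, the pore subunit of the ATP-sensitive potassium channel, read 380, 442 and 453 against 243, 270 and 225 (0.79 ± 0.11, adjusted p = 0.0288). Neither gene's groups overlapped. Ffar2, a receptor for short-chain fatty acids, was 2.2-fold higher (adjusted p = 0.0209), and Slc6a4, the serotonin transporter, 1.87-fold higher (adjusted p = 0.0173). Pclo, a scaffold protein of vesicle release sites named here after its value was seen, was higher by 0.81 ± 0.11 (adjusted p = 0.0209).

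Further genes higher in the Sox9 heterozygotes have other roles. Tdh, which encodes threonine dehydrogenase, read 1276, 1239 and 1136 against 469, 421 and 527. Its groups stood 2.58-fold apart (1.37 ± 0.09, adjusted p = 7.81e-04). Dct, a melanin synthesis enzyme also used as a marker of neural crest, was higher by 1.01 ± 0.13 (adjusted p = 0.018), Egfl6, a secreted matrix protein, by 1.03 ± 0.14 (adjusted p = 0.0209), and the kinase gene Cdkl1 by 0.88 ± 0.09 (adjusted p = 0.00873).

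Cartilage-type collagens led the genes that were lower in the Sox9 heterozygotes. Col9a1 read 244, 348 and 367 in the Sox9 and 1094, 1210 and 1214 in the Pdx1 heterozygotes. The difference was 3.72-fold (-1.90 ± 0.23, adjusted p = 0.0152, limma). Col9a3 read 262, 305 and 321 against 684, 772 and 648, a 2.37-fold difference (-1.25 ± 0.18, adjusted p = 0.0308). Col2a1, the chain of collagen II, read 5209, 5552 and 5929 against 9340, 9998 and 10039, 1.76-fold apart (-0.82 ± 0.09, adjusted p = 0.0104). In each of the 3 genes every Sox9 array lay below every Pdx1 array.

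The list of cartilage matrix genes known elsewhere as SOX9 targets held no further call. These 3 were the only ones of its 15 measured members to pass in either direction, where 0.0809% of all probes passed as lower. With Col10a1 and Sox6, which did not pass, 5 were lower on all 3 Sox9 arrays and 1 was higher, against 6.04% and 6.54% of all probes. The list's median difference was -0.04, against 0.000316 over all probes. Matn4, a matrilin of the list, lay the other way at 1.05 ± 0.30 without passing (adjusted p = 0.404). Of the SOX family, none of 18 measured members passed. Sox10, a factor of neural crest and glia, read 293, 309 and 275 against 378, 344 and 473 (adjusted p = 0.68).

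Several of the remaining lower genes are known from glia, other epithelia or signalling. Plekhb1, which encodes a membrane-bound pleckstrin-homology protein, was 2.25-fold lower in the Sox9 heterozygotes (-1.17 ± 0.17, adjusted p = 0.0304), and Sh3tc2, a gene of myelinating Schwann cells, 1.92-fold lower (-0.94 ± 0.11, adjusted p = 0.0152). Rxrg, a retinoid X receptor, read 3615, 3510 and 3337 against 4999, 5832 and 5165. Its groups did not overlap (-0.61 ± 0.09, adjusted p = 0.0288). The chemokine receptor gene Cxcr4 was lower by a log2 difference of -0.79 ± 0.09 (adjusted p = 0.0152), Mmd2 by one of -0.91 ± 0.10 (adjusted p = 0.0104) and the anion transporter gene Slc26a9 by one of -0.57 ± 0.07 (adjusted p = 0.0152), the last at levels of 92 to 150 near the lower quartile of probes.

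Gip and Mnx1 were both higher in the Sox9 heterozygotes, and Col9a1 lay furthest in the other direction among the genes that passed. Because PDX1 binds homeodomain-type and SOX9 SOX-type sequence, the windows around their annotated starts are shown. They are RefSeq sequences of mouse build GRCm38.p6 from 250 bases before to 50 after the start, 5′ to 3′ on the gene's strand, with each TAAT core (either strand) in capitals. For Col9a1 the first of 2 annotated starts is shown.
Gip, chr11:96024295-96024594, plus strand: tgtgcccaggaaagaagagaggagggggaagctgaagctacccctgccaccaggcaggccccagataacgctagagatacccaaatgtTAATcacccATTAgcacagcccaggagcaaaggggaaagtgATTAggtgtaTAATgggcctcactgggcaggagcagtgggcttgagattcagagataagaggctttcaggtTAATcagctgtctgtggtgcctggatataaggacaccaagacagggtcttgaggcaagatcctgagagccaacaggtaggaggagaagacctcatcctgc
Mnx1, chr5:29478421-29478720, minus strand: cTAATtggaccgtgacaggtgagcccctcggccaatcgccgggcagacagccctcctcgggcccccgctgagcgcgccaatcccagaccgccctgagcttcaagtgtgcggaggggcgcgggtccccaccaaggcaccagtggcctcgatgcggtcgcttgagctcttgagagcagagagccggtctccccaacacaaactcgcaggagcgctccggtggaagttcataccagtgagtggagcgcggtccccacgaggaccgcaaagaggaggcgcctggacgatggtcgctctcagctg
Col9a1, chr1:24177360-24177659, plus strand: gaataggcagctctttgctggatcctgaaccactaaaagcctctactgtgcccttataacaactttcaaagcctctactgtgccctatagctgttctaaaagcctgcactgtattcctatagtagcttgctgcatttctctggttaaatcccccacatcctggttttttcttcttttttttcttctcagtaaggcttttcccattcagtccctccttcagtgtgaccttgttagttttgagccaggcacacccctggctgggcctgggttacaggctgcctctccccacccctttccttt
Gip holds 5 cores, as many as or more than which are found in 6.86% of 32851 such windows, Mnx1 holds 1 and Col9a1 0. At least 1 core occurs in 58% of windows. The SOX-type hexamers ACAAAG and ACAATG, present on either strand in 28.6% of windows, matched in none of the 3. Only these forms were searched, so other SOX-type sequence in the windows was not counted. A match of so few letters is not a binding site, and no match says nothing about binding elsewhere.

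The double heterozygotes carry both losses. Their arrays did not enter the difference of the 43 genes, but they entered the spread and so helped decide which genes passed. Among the 28 genes higher in the Sox9 heterozygotes, the double-heterozygote mean was nearer to the Pdx1 mean for 20 and nearer to the Sox9 mean for 8. Among the 15 lower genes it was nearer to the Sox9 mean for 11 and to the Pdx1 mean for 4. The same counts over all probes were not taken. Of the 28 higher genes, 14 had double-heterozygote arrays that overlapped the Pdx1 arrays and stood apart from the Sox9 arrays. For 6, Foxa3 and Slc6a4 among them, they overlapped the Sox9 arrays and stood apart from the Pdx1 arrays. For Gip the double heterozygotes read 109, 89 and 101, for Adra2a 652, 704 and 439, and for Mnx1 250, 336 and 362. In each the range overlapped that of the Pdx1 heterozygotes and lay wholly below the Sox9 arrays. Their log2 difference to the Sox9 heterozygotes was -2.06 for Gip (adjusted p = 1.7e-04, limma), -1.64 for Adra2a (adjusted p = 0.0178) and -1.27 for Mnx1 (adjusted p = 0.0294), and to the Pdx1 heterozygotes -0.10, 0.02 and 0.36 (adjusted p = 0.633, 0.968 and 0.34). These genes were chosen for their high Sox9 arrays, which the comparison with the Sox9 heterozygotes uses again, so its p-values are not separate support.

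On the other side, Col9a1 read 702, 367 and 558, Col9a3 437, 290 and 256, and Col2a1 7664, 6493 and 6757 in the double heterozygotes. All lay below the Pdx1 arrays, overlapping the Sox9 arrays for the collagen IX genes and between the groups for Col2a1. Their difference to the Pdx1 heterozygotes was -1.16, -1.13 and -0.49, none of which passed (adjusted p = 0.105, 0.0715 and 0.0871). Over all probes 0.307% passed between double and Sox9 heterozygotes and 0.108% between double and Pdx1 heterozygotes. For G6pc2 and Dct the double heterozygotes, at 151, 131 and 112 and at 598, 545 and 417, lay below both other groups. Habp2, a plasma serine protease gene, was highest in the double heterozygotes at 843, 872 and 950, against 803, 762 and 794 in the Pdx1 and 521, 580 and 582 in the Sox9 heterozygotes. The share of genes on either side was not tested and is not set against that over all probes. All 3 comparisons use arrays in common, including those by which the genes were chosen.

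The genes beside each altered locus were examined separately. Of the 10 nearest measured genes on each side of Sox9, in the RefSeq gene order of GRCm38.p6, 1 of 20 passed. It was 2610035D17Rik, the next measured gene after Sox9, which read 411, 441 and 444 in the Sox9 and 819, 871 and 842 in the Pdx1 heterozygotes. It was lower on every Sox9 array (-0.97 ± 0.08, adjusted p = 0.00193) and, at 550, 476 and 513, also below the Pdx1 arrays in the double heterozygotes (-0.72, adjusted p = 0.0254). BC006965, the measured gene before Sox9, varied widely within groups, with 1149, 1453 and 231 against 2709, 537 and 1104.

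None of 20 neighbours of Pdx1 passed or had groups that did not overlap. None of 20 neighbours of Foxa3 passed between Sox9 and Pdx1 heterozygotes. Of these, 6 were higher on all 3 Sox9 arrays and 1 was lower, against 6.54% and 6.04% of all probes. Beside Sox9 the corresponding counts were 4 higher and 5 lower of 20. The furthest apart there was Abca8a, a transporter gene named after its value was seen, at 495, 494 and 517 against 372, 187 and 207 (1.04 ± 0.22, adjusted p = 0.185). The 4 nearest of the 6 beside Foxa3, named after their values were seen, were Mypop, Irf2bp1, Sympk and Dmwd, and they lay within 3 places of Foxa3. Sympk, a polyadenylation factor gene next to Foxa3, read 11063, 13049 and 13820 in the Sox9, 5647, 8551 and 8537 in the Pdx1 and 14339, 12869 and 13752 in the double heterozygotes (0.76 ± 0.16, adjusted p = 0.176 between Sox9 and Pdx1). Irf2bp1, next on the other side, read 2417, 2917 and 2857 against 1703, 1880 and 2088, with 3434, 3166 and 4199 in the double heterozygotes. Both groups with Foxa3-Cre and a deleted Sox9 allele thus stood above the Pdx1 heterozygotes for these genes, as for Foxa3 itself. In the limma test between double and Pdx1 heterozygotes, Irf2bp1 (0.92, adjusted p = 0.0434) and Mypop (0.68, adjusted p = 0.0495) passed. Sympk (0.87, adjusted p = 0.0916) and Dmwd (0.78, adjusted p = 0.105) did not, and 0.108% of all probes passed that test. These 4 genes were named for Sox9 arrays above the Pdx1 arrays, and that test uses the Pdx1 arrays again. Its p-values are therefore not separate support.

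**Figure D3:**
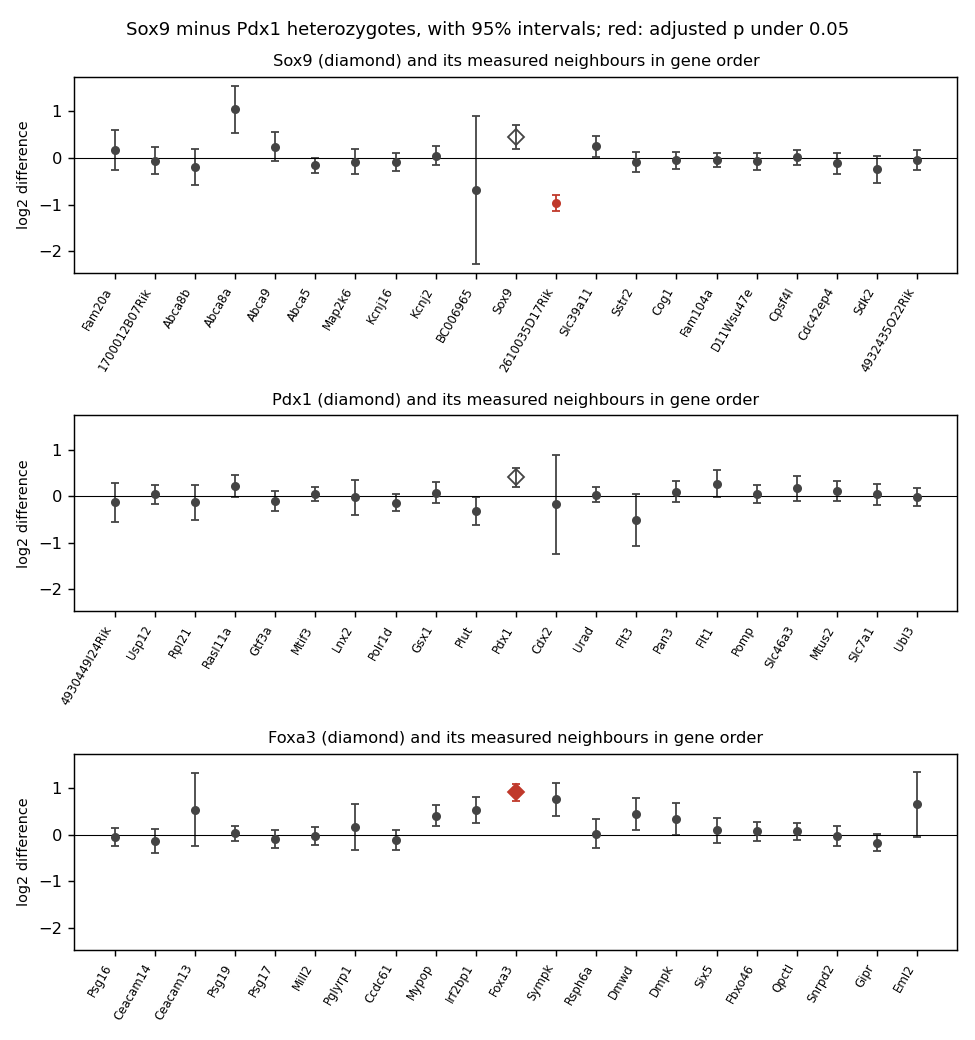
Log2 difference of Sox9 minus Pdx1 heterozygotes (vertical axis, 95% interval of the limma fit) for Sox9, Pdx1 and Foxa3 (diamonds) and the 10 nearest measured genes on each side in gene order. Only 2610035D17Rik at -0.97 and Foxa3 at 0.90 pass an adjusted p of 0.05 (red); Mypop, Irf2bp1, Sympk and Dmwd beside Foxa3 lie above 0.

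Acinar enzyme genes had the highest median difference of the 26 lists. Of 30 measured members 2 passed, both higher in the Sox9 heterozygotes, and 15 were higher on all 3 Sox9 arrays with 0 lower, against 6.54% and 6.04% of all probes. Only 9 of the 30 lay above the array median on all 6 arrays. The summed intensity of all 30 overlapped between the groups, at 179930 to 196642 in the Sox9 and 147417 to 192972 in the Pdx1 heterozygotes, and was 184382 to 223891 in the double heterozygotes. Cpa1 alone, at 74082 to 85744 against 80271 to 108215, made up a large part of it. The median was 0.37, and between 0.29 and 0.45 when 1 array was left out. Cela1, a pancreatic elastase listed as Ela1, read 1338, 1403 and 1610 in the Sox9 and 617, 590 and 642 in the Pdx1 heterozygotes (1.23 ± 0.19, adjusted p = 0.0407). Cpb1, a procarboxypeptidase, read 167, 155 and 178 against 88, 98 and 96, the latter under the lower quartile of the arrays (0.83 ± 0.12, adjusted p = 0.0288). Both genes had groups that did not overlap.

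Among acinar genes that did not pass, Serpini2, a pancreatic serpin, read 1135, 946 and 1269 against 515, 284 and 388 (1.53 ± 0.39, adjusted p = 0.312). Its groups did not overlap, but Pdx1 array 2 stood low, as it did for the proteases Ctrc (174, 93 and 166) and Ctrb1 (1285, 671 and 1107). Rbpjl, the acinar partner of the factor PTF1A, read 2694 on Sox9 array 1 and 5145 and 5885 on the other arrays of that group, against 2807, 1686 and 2660, so that its groups overlapped. Cpa1, an early carboxypeptidase of multipotent progenitors, was at the lower end of the list at -0.24. The double heterozygotes had a median of 0.16 over the list against the Pdx1 and of -0.19 against the Sox9 heterozygotes. Members of a list share cells and RNA and are not independent.

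**Figure D4:**
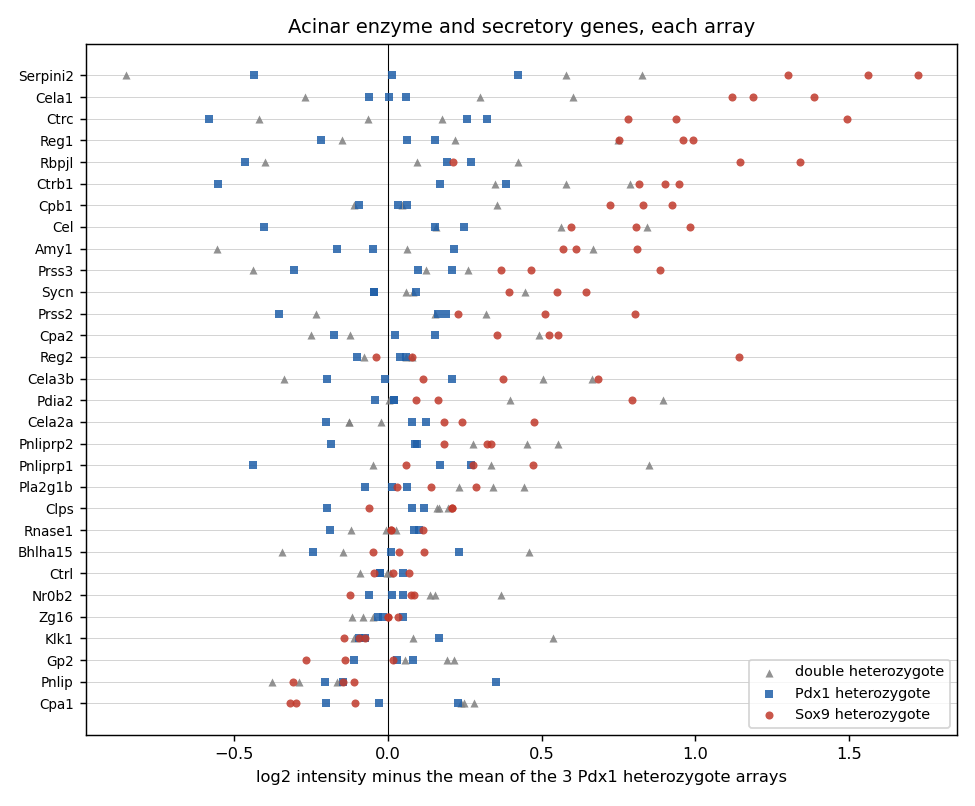
Log2 intensity of the 30 measured acinar genes on each array, relative to the mean of the Pdx1 heterozygote arrays (horizontal axis). For 15 genes the 3 Sox9 heterozygote arrays (red) lie above the 3 Pdx1 heterozygote arrays (blue); the double heterozygotes (grey) spread over both ranges.

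Endocrine transcription factors gave no call among 28 measured members and had a median of -0.05. Neurog3, which starts endocrine differentiation, read 684, 413 and 439 against 612, 673 and 732, with overlapping groups (-0.43 ± 0.28, adjusted p = 0.862). Of 14 hormone genes Gip alone passed. The amylin gene Iapp read 814, 764 and 852 against 547, 533 and 460, apart on all arrays without passing (0.66 ± 0.14, adjusted p = 0.191), and Ghrl, the ghrelin gene, leaned the other way at -0.42 ± 0.17 (adjusted p = 0.736). Of the granule and secretion genes beside G6pc2 and Kcnj11, Abcc8, which encodes the partner subunit of Kcnj11 in the same channel, read 8454, 9127 and 10159 against 7024, 6636 and 6785 (0.44 ± 0.10, adjusted p = 0.209). The arrays did not overlap for 4 of the 28 members of this list in each direction, against 6.54% higher and 6.04% lower of all probes, and its median was 0.02.

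Among 28 progenitor factors Mnx1 and Foxa3 passed, both higher in the Sox9 heterozygotes, and the median was 0.01. On all 3 Sox9 arrays 5 were higher and 2 lower, against 6.54% and 6.04% of all probes. Onecut2, a factor of liver and pancreas development, was the furthest the other way with 166, 204 and 245 against 420, 369 and 396. Its groups did not overlap and it did not pass (-0.96 ± 0.27, adjusted p = 0.404), while the double heterozygotes read higher still at 562, 564 and 1217. Of 31 duct and trunk genes none passed, and the keratin gene Krt19 read 1111, 1243 and 1285 against 1897, 1605 and 1640 (-0.50 ± 0.12, adjusted p = 0.296). On all 3 Sox9 arrays 2 of the 31 were higher and 5 lower, beside the same shares of all probes.

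Lists of signalling pathways held no gene that passed, and their counts of members with arrays apart stand against 6.54% higher and 6.04% lower of all probes. For the FGF pathway, whose signals from the mesenchyme sustain progenitor growth, 0 of 32 members were higher and 7 lower on all 3 Sox9 arrays, with a median of -0.09. Among these were the cyclin D1 gene Ccnd1, at 3784, 3788 and 3653 against 5223, 5055 and 4749 (-0.42 ± 0.10, adjusted p = 0.284), and the FGF-induced factor Etv5, at 137, 163 and 180 against 217, 237 and 252 (adjusted p = 0.756). The BMP and TGF-beta list gave 0 higher and 5 lower of 39, the Wnt list 8 higher and 5 lower of 54, the Notch list 3 and 1 of 34 and the hedgehog list 1 and 2 of 18, with medians from -0.06 to 0.06. Among the Wnt genes, the receptor gene Lgr5 (0.49 ± 0.12, adjusted p = 0.267) and the inhibitor gene Notum (-0.44 ± 0.11, adjusted p = 0.258) lay furthest apart of those whose arrays did not overlap, leaving aside Wnt2, which read 390 on a single Sox9 array.

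Intestinal, stomach and liver lists had medians of 0.04, 0.00 and 0.03. None of 37 intestinal and 18 stomach genes passed, and of 40 liver genes Mat1a, a methionine adenosyltransferase, was higher in the Sox9 heterozygotes (0.80 ± 0.12, adjusted p = 0.043). Arrays did not overlap for 5 intestinal genes upward and 5 downward, for 1 and 3 stomach genes and for 8 and 3 liver genes. Arrays did not overlap for 1 cell cycle gene of 42 upward and 2 downward, and for 4 and 3 of 40 epithelial polarity genes. Over all probes the shares were 6.54% upward and 6.04% downward, and neither the cell cycle nor the polarity list held a call.

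Markers of other cell types were counted in the same way. White blood cell markers were higher on all 3 Sox9 arrays for 12 of 25 members and lower for 0, against 6.54% and 6.04% of all probes, with a median of 0.27 that ranged from 0.15 without Sox9 array 1 to 0.35 without Sox9 array 3. None passed, and 10 of the 25 lay above the array median on all 6 arrays. The summed intensity of all 25 was 13626 to 20854 in the Sox9 and 11060 to 12719 in the Pdx1 heterozygotes, so that these markers moved the same way as the acinar genes, and their part in that result was not tested. The macrophage gene C1qc read 2062, 1758 and 1608 against 1407, 1579 and 1510, whereas the granulocyte gene S100a9 varied within groups, at 2599, 230 and 1084 against 119, 490 and 817.

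Mesenchymal markers gave 1 higher and 5 lower of 32 by arrays that did not overlap, with summed intensities of 112240 to 127705 in the Sox9 and 118363 to 127903 in the Pdx1 heterozygotes. Fibronectin (Fn1), at 1445, 1758 and 1777 against 2468, 2413 and 2483, was the furthest apart of these 6 (-0.57 ± 0.17, adjusted p = 0.467). Neural, glial and crest markers summed to 19360 to 22832 against 17629 to 19377, and Dct alone of 26 passed. On all 3 Sox9 arrays 3 of these markers were higher and 2 lower, with a median of 0.12. Endothelial markers gave 2 higher and 0 lower of 21, erythroid markers 0 and 1 of 19, mesothelial markers 0 and 1 of 11 and dissection stress genes 2 and 0 of 26, with no call in any of the 4 lists. All these counts stand against 6.54% higher and 6.04% lower of all probes.

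**Figure D5:**
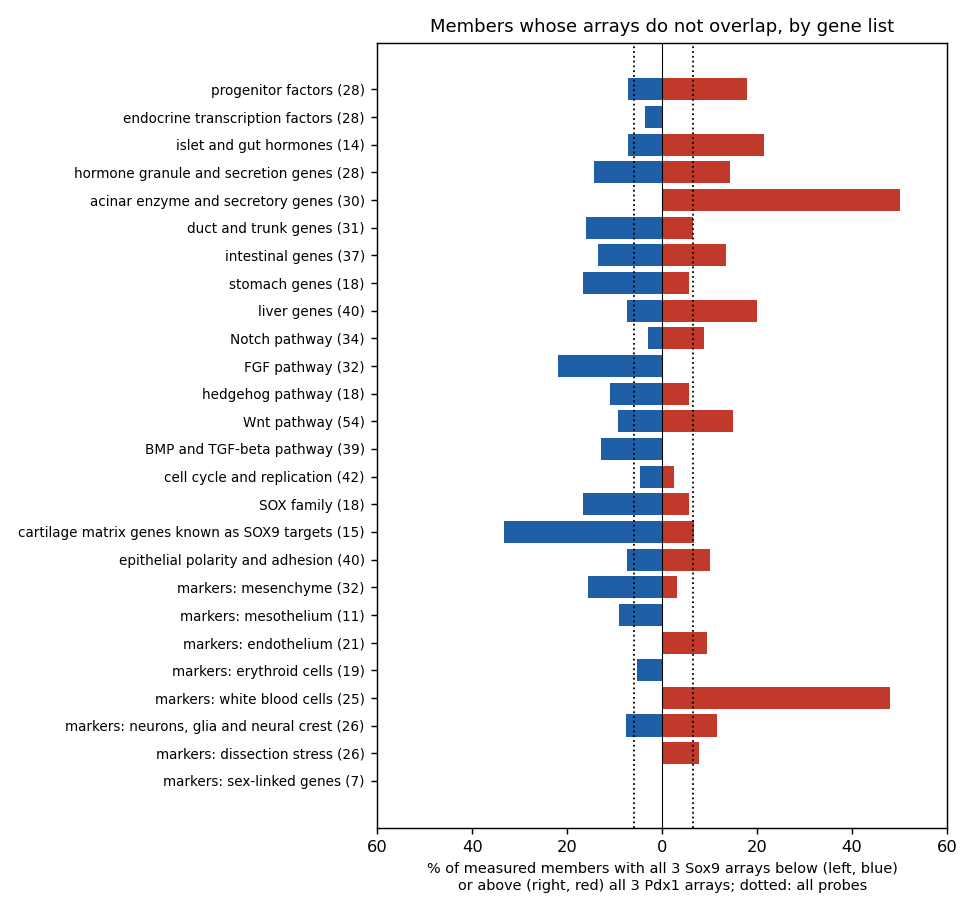
Share of each list's measured members (number in brackets) whose 3 Sox9 heterozygote arrays all lie above (red, right) or below (blue, left) the 3 Pdx1 heterozygote arrays, in percent. Dotted lines give the same shares over all probes, 6.54% above and 6.04% below; acinar genes (15 of 30) and white blood cell markers (12 of 25) reach furthest right and cartilage matrix genes (5 of 15) furthest left.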

How the data were processed

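Per the labels' protocols, 9 RNA samples were hybridised to Agilent arrays in a single colour, Cy3. The title of 1 double-heterozygote sample reads replicates 3 and 4, and it was counted as replicate 3. The value table holds array intensity per probe, deposited on a linear scale for 18541 probes. Quartiles are nearly equal between arrays, so it was normalized, by a method not given in the sources used here, and the submitters' processing notes name limma. Log2 was taken with no pseudocount, and limma 3.58.1 in R 4.3.3 was fitted to all 9 arrays with genotype as the factor and Benjamini-Hochberg adjustment over all probes. The fit's difference equals, within 4.3e-08, that derived from the log2 ratios of the authors' deposited table, whose FDR (a q-value per the file headers) covers only the double heterozygotes. At FDR 0.05 the authors' deposited table holds 4292 genes for double against Sox9 heterozygotes and 3199 for double against Pdx1 heterozygotes, where this fit called 57 and 20; how that FDR was computed is not given. A further 9 columns of values per array, named by slide, match no sample label and were not used, so slide could not be tested as a block.

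Symbols came through the Entrez number from RefSeq for 17183 probes. Members and lists were chosen with earlier results of these data known. The named genes were Sox9, Pdx1 and Foxa3, the 15 largest differences that passed in each direction without overlap and with a usual symbol, up to 4 members per list, neighbours that passed, and sex-linked genes; not all are described. Outside that rule, C1qc, Cdh1, Col10a1, Cpa1, Ctrb1, Rbpjl, Sox6 and BC006965 were also named after their values were seen. The fit was run on simulated data whose spreads were drawn from the fit itself, which cannot show how stable the calls are. The p-values measure the spread between 3 pools per group.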

Additional observations from a re-analysis of the deposited data

How the results depend on the processing

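The direction of all 43 genes held in the 17 alternative fits, whereas the number past the threshold moved. With the replicate number in the titles as a block it was 18 (11 higher and 7 lower in the Sox9 heterozygotes), 17 of them among the 43, with 5 list members and 1 neighbour. Same-numbered Sox9 and Pdx1 arrays did not deviate together (correlations of -0.177, -0.0191 and -0.094), so the numbers give no pairing. Array weights, whose estimation stopped before its tolerance was reached, gave 227 calls (140 and 87), with 31 list members and 5 neighbours, and passed Pdx1 at 0.494 (adjusted p = 0.0103). An adjusted p under 0.01 left 5 genes (4 and 1) and 2 list members. An adjusted p under 0.1, a threshold chosen after seeing the data, gave 67 (45 and 22). The 6 arrays alone gave 59, with 38 of the 43 among them, leaving out the dimmest 25% of probes 57, median centring 51, quantile normalization 40, a variance trend with robust estimation 41, and a pseudocount of 16 gave 45. Leaving out 1 array in turn gave 4 to 71 calls, with 3 to 47 for the genes different, higher in Sox9 heterozygotes, and 1 to 24 for the genes different, lower in Sox9 heterozygotes, 2 to 15 list members and 1 to 2 neighbours. The cause of these shifts was not tested, and some of these fits also hold fewer arrays. Directions that turned belonged to genes that did not pass. With 1 array left out, the log2 difference ran from -0.167 to 0.649 for Kdm5d, -0.050 to 0.738 for Ddx3y, -0.115 to 0.944 for Eif2s3y, -0.120 to 0.479 for Boc, -0.215 to 0.502 for Msln and -0.118 to 0.008 for Zfy1. Array weights turned Boc to -0.012 and S100a9 to -0.261. With 3 arrays per group, 1166 of 18541 probes had an unadjusted p under 0.05 in the limma test. That is not far above the share this threshold gives when no gene differs, and most of them fail the adjustment. Levels near the lower quartile limit the folds.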
